A study of Mus musculus with 8 samples.

Results

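L1cam, Chl1, Nfasc, Nrcam, Ncam1 and Ncam2 are the mouse genes of the L1 family and of the neural cell adhesion molecule (NCAM) family, and were chosen by name for membership of those families. All 6 were found among the 55414 genes of the deposited count table, and all 6 were among the 24356 genes that passed the filter on low counts. The RNA came from a mouse model of supratentorial ependymoma driven by the ZFTA-RELA fusion, a glial brain tumor in which the fusion protein acts on chromatin. The 8 libraries formed 4 groups of 2: naive brain from vehicle mice, tumor from vehicle mice, naive brain from MRX-2843 mice and tumor from MRX-2843 mice. MRX-2843 is a small molecule that blocks the kinases MERTK and FLT3, given at 50 mg/kg by gavage each day for 5 days, and tissue was taken 1 h after the last dose. Vehicle went by the same schedule to mice whose tumor had also been seen by MRI before they were randomised.

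The labels give the ZFTA-RELA fusion as genotype for all 8 libraries, naive brain included, and name the drug in the cell line field of all 8. They give no strain, age or promoter for the fusion, and do not say whether naive brain was taken beside a tumor. The titles call the 2 libraries of a group replicates, and the column names of the count table call them duplicates. Neither says whether they came from separate animals, so the spread behind the p-values may be technical. Within each group the counts of the libraries differed by more than sampling noise, with a chi-square per degree of freedom of 9.23 to 18.8 over genes with at least 20 counts. A number in the column names is 909 for every MRX-2843 library and 914 or 915 for vehicle. Its meaning is not given, and treatment cannot be told apart from it.

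The L1 family proteins are cell surface molecules with immunoglobulin and fibronectin type III repeats, a membrane span and a short cytoplasmic tail that binds ankyrin and through it the spectrin-actin skeleton. L1 itself guides and bundles axons, CHL1 (close homolog of L1) acts in neurite growth and is also made by glia, neurofascin organises the axon initial segment and the node of Ranvier in neuronal and glial isoforms, and NrCAM takes part in node assembly and axon guidance. The NCAM proteins share the extracellular repeats, bind homophilically, and differ in that NCAM1 is the main carrier of polysialic acid in the brain while NCAM2 is known best from olfactory axons. L1CAM protein is used in pathology as a marker of human supratentorial ependymoma with this fusion. Gene counts do not separate isoforms.

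The libraries labelled MRX-2843 tumor stood apart from those labelled vehicle tumor and near naive brain. Over 13302 genes, the correlation of log2 levels was 0.958 to 0.960 between MRX-2843 tumor and vehicle naive brain, 0.444 to 0.452 between MRX-2843 tumor and vehicle tumor, and 0.990 to 0.992 within groups. Mitochondrial genes took 3.26% and 3.37% of counts in vehicle tumor and 14.7% to 18.5% elsewhere. Xist, an RNA made from the inactive X in females, stood at 2.11 to 2.88 CPM (the count over the TMM-scaled library total, at a common depth) in vehicle naive brain and 0.408 to 0.867 CPM in vehicle tumor, against 526 to 531 CPM in MRX-2843 naive brain and 736 to 795 CPM in MRX-2843 tumor. Ddx3y, a Y-linked gene, had 0 counts in all 4 MRX-2843 libraries and 32.3 to 76.2 CPM in the 4 vehicle libraries. Treatment therefore cannot be told apart from this difference in sex-linked genes. Whether the MRX-2843 tumor libraries hold tumor tissue to the same degree as the vehicle tumor libraries was not tested, and every comparison with them takes the label as given. Library totals ran from 51150569 to 112938462 counts. In such bulk RNA, fewer cells of a type and less RNA per cell cannot be told apart.

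The start sites of L1cam and Chl1 are shown because these genes differed most in their pattern across the libraries. Each run holds the 250 bases before and the 50 after a RefSeq start on GRCm38.p6, on the gene's own strand, with matches to the GC box (GGGCGG, searched on both strands) in capitals.
L1cam, chrX:73880741-73881040, minus strand: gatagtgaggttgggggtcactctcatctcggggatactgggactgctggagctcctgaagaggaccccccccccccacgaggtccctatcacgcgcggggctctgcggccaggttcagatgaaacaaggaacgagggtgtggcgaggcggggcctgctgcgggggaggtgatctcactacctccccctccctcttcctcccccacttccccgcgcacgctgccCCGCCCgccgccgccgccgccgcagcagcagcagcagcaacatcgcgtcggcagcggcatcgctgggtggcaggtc
Chl1, chr6:103510626-103510925, plus strand: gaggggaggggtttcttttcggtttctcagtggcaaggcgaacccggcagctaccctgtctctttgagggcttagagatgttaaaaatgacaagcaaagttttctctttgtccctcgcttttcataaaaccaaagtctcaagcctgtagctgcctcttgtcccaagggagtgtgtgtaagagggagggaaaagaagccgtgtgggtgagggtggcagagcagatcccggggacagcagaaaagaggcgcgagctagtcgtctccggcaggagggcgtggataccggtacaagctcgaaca

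L1cam has 2 listed starts close to each other, of which the first is shown. Its window held 25 CpG dinucleotides, 69.3% G and C, and 1 GC box, and that of the other start 22 CpG dinucleotides, 67.0% G and C and 2 GC boxes. The Chl1 window held 13 CpG dinucleotides, 53.7% G and C and no GC box. Over the 32851 promoter windows of the same length, the median was 7 CpG dinucleotides and 52.7% G and C, and 35.7% held a GC box. The Nrcam window held 37 CpG dinucleotides and 2 GC boxes, and the Ncam2 window 41 CpG dinucleotides and 2 GC boxes. Nfasc also has 2 listed starts, with 7 and 3 CpG dinucleotides. The kappaB motif, the site that RELA and its relatives bind, was matched in none of the L1cam, Chl1, Nrcam and Ncam2 windows and in the window of 1 of the 2 Nfasc starts, against 8.46% of all windows. No window was listed for Ncam1, so none was searched. Such a match describes letters in a window and not a site in use.

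L1cam lies at chrX:73853778-73896105 on the minus strand, with 7347 exon bases. It stood at 139 and 127 CPM in vehicle naive brain, 40.6 and 41.6 CPM in vehicle tumor, 152 and 135 CPM in naive brain under MRX-2843, with MRX-2843 tumor at 126 and 127 CPM. Both vehicle tumor libraries were lower than the other 6. The ranges of vehicle naive brain overlapped those of both MRX-2843 groups. L1cam shares 100 exon bases with Arhgap4 on the same strand, a gene at 15.5 to 16.8 CPM in vehicle tumor and 3.90 to 6.90 CPM in the other groups.

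Chl1 lies at chr6:103510586-103750211 on the plus strand, with 12293 exon bases. Its level was 88.8 and 82.2 CPM in vehicle naive brain, 141 and 146 CPM in vehicle tumor, 62.2 and 69.5 CPM in naive brain under MRX-2843, with MRX-2843 tumor at 58.3 and 56.0 CPM. Vehicle tumor was the highest group and MRX-2843 tumor the lowest, and no ranges overlapped. Within a library the ratio of Chl1 to L1cam per kilobase does not depend on scaling. That ratio was 0.382 and 0.388 in vehicle naive brain, 2.08 and 2.10 in vehicle tumor, 0.245 and 0.307 in naive brain under MRX-2843, with MRX-2843 tumor at 0.277 and 0.264. Chl1 thus exceeded L1cam per length in the vehicle tumor libraries and was below it in the other 6.

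Nfasc lies at chr1:132564690-132741797 on the minus strand, with 14145 exon bases. It was measured at 255 and 243 CPM in vehicle naive brain, 174 and 172 CPM in vehicle tumor, 274 and 245 CPM in naive brain under MRX-2843, with MRX-2843 tumor at 393 and 388 CPM. The MRX-2843 tumor libraries were the highest, vehicle tumor the lowest, and the ranges of the naive brain groups overlapped between them. Nrcam lies at chr12:44328885-44601964 on the plus strand, with 13358 exon bases. Its libraries read 174 and 162 CPM in vehicle naive brain, 82.7 and 86.6 CPM in vehicle tumor, 113 and 114 CPM in naive brain under MRX-2843, with MRX-2843 tumor at 134 and 128 CPM. All 4 group ranges were apart, with vehicle naive brain at the top. The ratio of Nfasc to Nrcam per kilobase was 1.39 and 1.42 in vehicle naive brain, 1.99 and 1.88 in vehicle tumor and 2.77 and 2.87 in MRX-2843 tumor, with MRX-2843 naive brain at 2.29 and 2.04. It was highest in MRX-2843 tumor and lowest in vehicle naive brain.

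Ncam1 lies at chr9:49502136-49798925 on the minus strand, with 8664 exon bases. It stood at 209 CPM in both vehicle naive brain libraries, 159 and 160 CPM in vehicle tumor, 275 and 268 CPM in MRX-2843 naive brain, and 208 CPM in both MRX-2843 tumor libraries. Its spread across groups was the narrowest of the family, the highest group mean being 1.70 times the lowest, against 3.49 times for L1cam. Vehicle naive brain and MRX-2843 tumor were nearly level. Ncam1 shares 417 exon bases with the antisense gene Gm11149, which had at most 0.715 CPM in any library.

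Ncam2 lies at chr16:81200697-81626828 on the plus strand, with 11330 exon bases. It was the least abundant, at 26.9 and 26.0 CPM in vehicle naive brain, 10.5 and 11.9 CPM in vehicle tumor, 17.1 and 16.2 CPM in naive brain under MRX-2843, with MRX-2843 tumor at 18.7 and 20.2 CPM. The order of its groups was that of Nrcam. The ratio of Ncam1 to Ncam2 per kilobase was 10.1 and 10.5 in vehicle naive brain, 19.9 and 17.5 in vehicle tumor, 21.1 and 21.7 in naive brain under MRX-2843, with MRX-2843 tumor at 14.6 and 13.5.

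**Figure D1:**
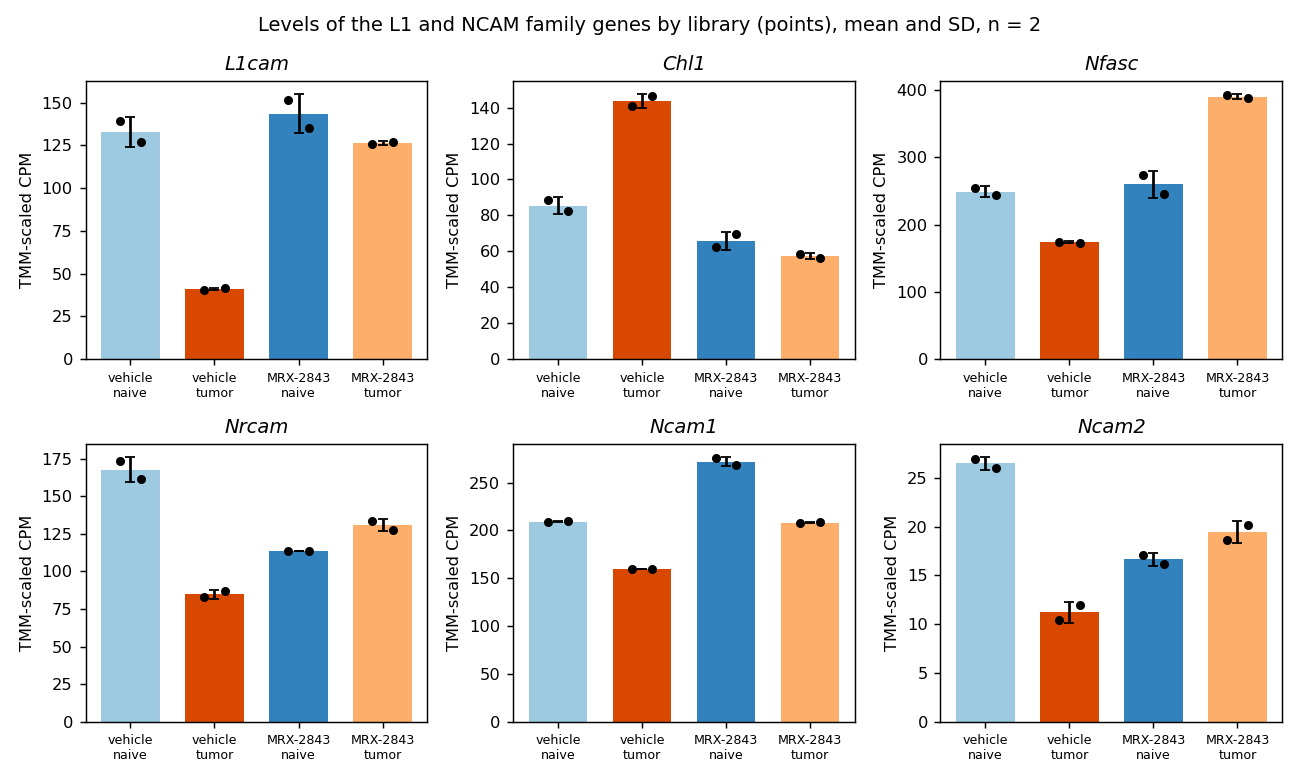
Level of each gene in CPM by group, with points for libraries, bars for the group mean and error bars for the SD (n = 2). Vehicle tumor is the lowest group for L1cam, Nfasc, Nrcam, Ncam1 and Ncam2 and the highest for Chl1, at 141 and 146 CPM.

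Vehicle tumor differed from vehicle naive brain in all 6 genes. L1cam fell most, 3.23-fold, by 1.69 ± 0.07 on the log2 scale (SE, 2 libraries a group; adjusted p = 1.6e-11, edgeR). Ncam2 fell by 1.24 ± 0.12 on the log2 scale (adjusted p = 3.2e-07), Nrcam by 0.99 ± 0.06 (adjusted p = 1.6e-09), Nfasc by 0.52 ± 0.06 (adjusted p = 1.3e-06) and Ncam1 by 0.39 ± 0.05 (adjusted p = 5.8e-06). Chl1 alone of the 6 rose, 1.68-fold, with a log2 difference of 0.75 ± 0.07 (adjusted p = 2.2e-07). In all genes tested, 29.3% were called higher and 30.8% lower in this comparison, 60.1% in either direction, so a call was common. The median log2 difference was -0.75 over the 6 genes and -0.03 over all genes tested, and the median absolute difference was 0.87 against 1.17. Scaled by library totals, where the median of all genes moved by 0.24, the directions were kept and Ncam1 stood at -0.14 (adjusted p = 0.0286). With both MRX-2843 tumor libraries left out of the fit, the counts were again 1 higher and 5 lower.

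MRX-2843 tumor differed from vehicle tumor in all 6 genes. This comparison shares the vehicle tumor libraries with the one above. L1cam was 3.07-fold higher, with a log2 difference of 1.62 ± 0.07 (adjusted p = 2.9e-11, edgeR). Nfasc rose by 1.17 ± 0.06 (adjusted p = 1.2e-10), Ncam2 by 0.79 ± 0.12 (adjusted p = 4.0e-05), Nrcam by 0.63 ± 0.06 (adjusted p = 3.3e-07) and Ncam1 by 0.38 ± 0.05 (adjusted p = 7.1e-06). Chl1 fell by 1.33 ± 0.07 on the log2 scale, 2.51-fold (adjusted p = 3.5e-10). Of all genes, 30.6% were called higher and 29.8% lower, 60.4% in either direction. The median log2 difference was 0.71 over the 6 genes and 0.03 over all, and library totals moved the latter by -0.21. Ncam1 then stood at 0.16 (adjusted p = 0.0122).

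Within MRX-2843 mice, tumor and naive brain differed less. Nfasc was higher in tumor by 0.59 ± 0.06 on the log2 scale (adjusted p = 3.3e-06, edgeR), and Ncam1 fell by 0.38 ± 0.05 (adjusted p = 4.2e-05). Nrcam was higher by 0.21 ± 0.06 (adjusted p = 0.0226). Its call was lost without MRX-2843 naive brain replicate 1 (adjusted p = 0.0754), without replicate 2 of that group (0.0716) and without MRX-2843 tumor replicate 1 (0.149), in a range of 0.0024 to 0.149 over its alternatives. Chl1 differed by -0.21 ± 0.07 (adjusted p = 0.0512), L1cam by -0.18 ± 0.07 (0.0729) and Ncam2 by 0.23 ± 0.12 (0.207). The counts of 2 higher and 1 lower stand beside 12.4% and 11.9% of all genes, 24.4% in either direction. Chl1 and L1cam lay close to the threshold. With 1 library at a time left out, Chl1 ranged from -0.28 to -0.12 and L1cam from -0.26 to -0.10. Whether each was called then varied with the library, of the compared groups or of vehicle tumor. Neither was called with both vehicle tumor libraries left out together.

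MRX-2843 naive brain differed from vehicle naive brain in 4 of the 6 genes, against 21.5% of all genes tested. Ncam1 rose by 0.38 ± 0.05 on the log2 scale (adjusted p = 4.8e-05, edgeR). Ncam2 fell by 0.67 ± 0.12 (adjusted p = 0.000758), Nrcam by 0.56 ± 0.06 (adjusted p = 7.5e-06) and Chl1 by 0.37 ± 0.07 (adjusted p = 0.00132). The counts of 1 higher and 3 lower stand beside 9.78% and 11.7% of all genes. L1cam differed by 0.11 ± 0.07 (adjusted p = 0.316) and Nfasc by 0.06 ± 0.06 (adjusted p = 0.550), with overlapping libraries, and Nfasc stood at -0.02 without MRX-2843 naive brain replicate 1. Ncam1 and Ncam2 moved in opposite directions in this comparison, as the ratios above show. Left out of the fit, neither both tumor libraries of MRX-2843 nor both of vehicle changed these counts. The naive brain groups also differed in neuron markers. Of the 12 listed below, 4 were called higher and 5 lower in MRX-2843 naive brain. Slc17a7 had 1685 CPM in vehicle and 150 CPM in MRX-2843 naive brain, with 795 CPM in MRX-2843 tumor. Gad1 had 226 and 341 CPM and Gad2 80.5 and 244 CPM in vehicle and MRX-2843 naive brain. Whether the naive brain groups hold like tissue was not tested. L1cam lies on the X chromosome, where the 822 genes tested had a median log2 difference of 0.14 between the naive brain groups, against 0.01 for the 23314 autosomal genes. In MRX-2843 tumor against MRX-2843 naive brain, where L1cam differed by -0.18, these medians were -0.17 and 0.003.

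The difference in tumor effect between treatments, tested as an interaction, passed for 5 of the 6 genes, against 51.6% of all genes. It was 1.51 ± 0.10 on the log2 scale for L1cam (adjusted p = 4.6e-09, edgeR), 1.47 ± 0.17 for Ncam2 (3.1e-06), 1.19 ± 0.09 for Nrcam (1.5e-08) and 1.11 ± 0.08 for Nfasc (1.7e-08), and -0.96 ± 0.10 for Chl1 (1.1e-06). Positive calls took 26.3% and negative calls 25.3% of all genes. Ncam1 stood at 0.01 ± 0.07 (adjusted p = 0.970), the tumor effect being -0.39 ± 0.05 in vehicle and -0.38 ± 0.05 in MRX-2843 mice. Scaled by library totals, Ncam1 turned to -0.21 and passed (adjusted p = 0.0207), within a range of 0.0207 to 1.00 over its alternatives. That scaling moved the median of all genes by -0.22.

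**Figure D2:**
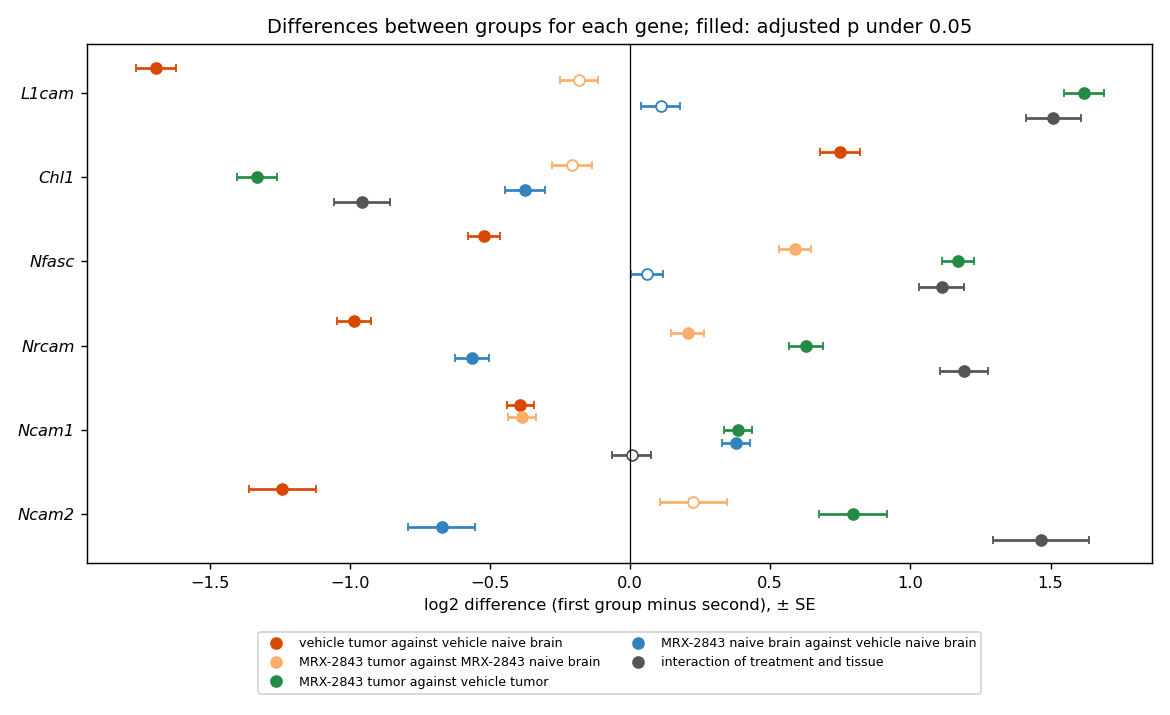
Log2 difference with its SE for each gene in the 4 pairwise comparisons and the interaction, edgeR fit of 2 libraries a group, filled where the adjusted p was under 0.05. L1cam at -1.69 and Chl1 at 0.75 lie on opposite sides of 0 in vehicle tumor against vehicle naive brain, and on the other sides, at 1.62 and -1.33, in MRX-2843 tumor against vehicle tumor.

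Per length, Ncam1 was the most abundant of the 6 in vehicle naive brain, at 24.1 ± 0.0543 CPM per kilobase of exon (SD, n = 2). L1cam followed at 18.1 ± 1.19 and Nfasc at 17.6 ± 0.558, which overlapped, then Nrcam at 12.6 ± 0.629, Chl1 at 6.95 ± 0.380 and Ncam2 at 2.34 ± 0.0590 CPM per kilobase. In vehicle tumor the order was Ncam1 at 18.4 ± 0.0269, Nfasc at 12.3 ± 0.103, Chl1 at 11.7 ± 0.300, Nrcam at 6.34 ± 0.211, L1cam at 5.60 ± 0.0933 and Ncam2 at 0.988 ± 0.0932 CPM per kilobase. L1cam thus ranked above Chl1 and Nrcam in vehicle naive brain and below both in vehicle tumor. In MRX-2843 tumor Nfasc led at 27.6 ± 0.235 CPM per kilobase, above Ncam1 at 24.0 ± 0.0106, and L1cam at 17.2 ± 0.134 was again above Nrcam at 9.79 ± 0.315 and Chl1 at 4.65 ± 0.132.

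The summed level of the 6 genes was 83.6 and 79.7 CPM per kilobase in vehicle naive brain, 54.8 and 55.7 in vehicle tumor, 86.8 and 82.3 in naive brain under MRX-2843, with MRX-2843 tumor at 85.3 and 84.7. Vehicle tumor was below all other libraries. Of that sum, Chl1 made up 20.9% and 21.4% in vehicle tumor and 5.38% to 8.64% in the other 6 libraries, and L1cam made up 10.1% and 10.2% there against 20.1% to 23.8% elsewhere. Nfasc took 32.5% and 32.4% in MRX-2843 tumor and 21.1% to 22.5% in the other libraries. Ncam1 took 36.6% and 37.6% in MRX-2843 naive brain and 28.2% to 33.5% in the rest. For each of these genes the group singled out stood apart from the other libraries by more than its duplicates differed. Other groups overlapped in places, as the naive brain groups did in the shares of Nfasc and L1cam.

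**Figure D3:**
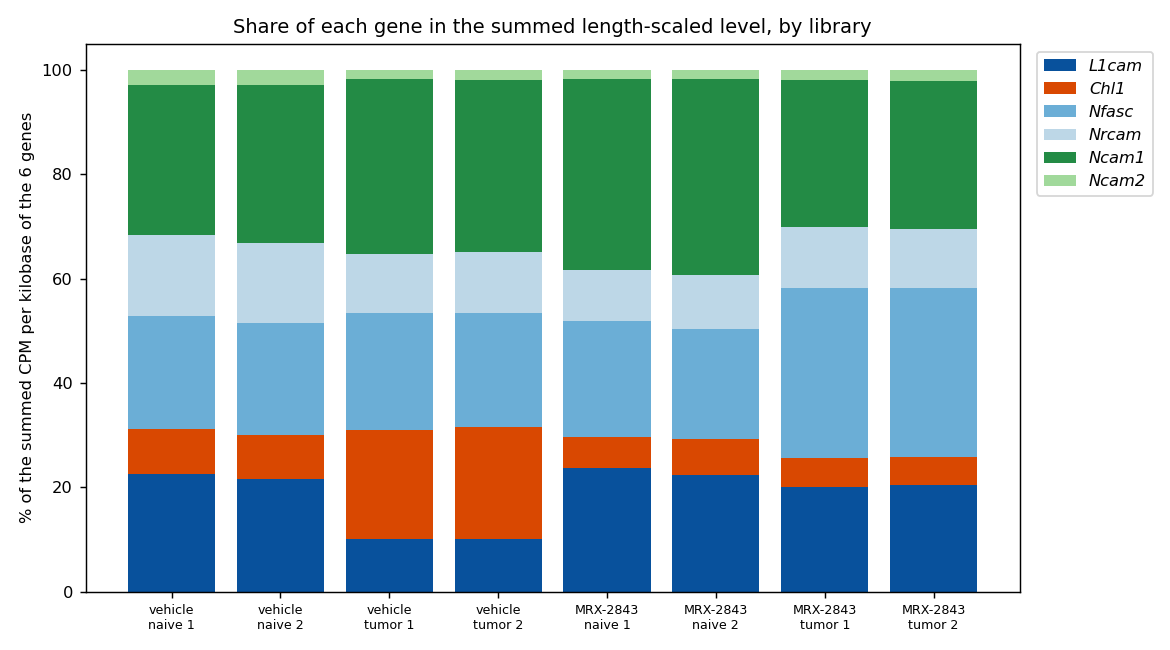
Share of each gene, in percent, in the summed CPM per kilobase of the 6 genes, one bar per library. The share of Chl1 is 20.9% and 21.4% in vehicle tumor, and that of Nfasc 32.5% and 32.4% in MRX-2843 tumor.

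The partners of these molecules were read from 6 lists. Beside the counts below, 29.3% of all genes were called higher and 30.8% lower in vehicle tumor against vehicle naive brain, and 30.6% higher and 29.8% lower in MRX-2843 tumor against vehicle tumor. The list of contactins and Caspr proteins holds some that bind L1 family members at the cell surface and some that flank the node. Of 12, 10 fell and 1 rose in vehicle tumor against vehicle naive brain, with a median log2 difference of -3.99 against -0.03 over all genes. Cntnap1, which encodes Caspr of the paranode, had 183 ± 0.341 CPM in vehicle naive brain, 13.1 ± 0.617 in vehicle tumor, 237 ± 12.9 in MRX-2843 naive brain and 195 ± 4.13 in MRX-2843 tumor (SD, n = 2). It fell by 3.80 ± 0.07 on the log2 scale (SE; adjusted p = 9.1e-16, edgeR). Cntnap2 fell by 3.67, Cntnap5a by 5.96 and Cntn1 by 1.43, while Cntn2, which binds L1 family proteins, rose by 0.87. In MRX-2843 tumor against vehicle tumor 10 of the 12 were higher and 2 lower, with a median of 3.81. The count of 2 became 1 without MRX-2843 tumor replicate 1 or 2 or with the compared groups alone, and 0 without vehicle tumor replicate 2.

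Among 14 genes for ankyrins, spectrins and other cytoskeletal adaptors, 11 fell and 3 rose in vehicle tumor (30.8% and 29.3% of all genes), with a median of -1.70. Ank3, which encodes the ankyrin-G that gathers neurofascin and NrCAM at the initial segment, stood at 177 ± 2.84 CPM in vehicle naive brain and 14.3 ± 0.942 CPM in vehicle tumor, and at 210 ± 9.13 and 221 ± 11.8 CPM in MRX-2843 naive brain and tumor. It fell by 3.64 ± 0.07 on the log2 scale. Sptbn4, a spectrin of the initial segment, fell by 5.22 ± 0.12 and Gap43, a growth cone protein, by 3.67. The members that rose were Ezr, Msn and Rdx, the ezrin, radixin and moesin linkers of membrane to actin. In MRX-2843 tumor against vehicle tumor 11 were higher and 2 lower, with a median of 1.38. Of 11 genes of the node and initial segment, 9 fell and 2 rose in vehicle tumor (median -4.00). The sodium channels Scn8a and Scn2a had log2 differences of -4.99 and -4.79 and the neurofilament Nefl of -5.45. Gldn, the gliomedin that clusters nodal neurofascin in peripheral nerve, rose by 4.71. The node list had 9 higher and 2 lower in MRX-2843 tumor against vehicle tumor (median 3.73).

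Genes that modify or cleave the adhesion molecules went the other way. Of 8, 7 rose and 1 fell in vehicle tumor (29.3% and 30.8% of all genes), with a median of 1.30. St8sia2, which builds polysialic acid on NCAM1, had 1.76 ± 0.708 CPM in vehicle naive brain, 21.6 ± 2.58 in vehicle tumor, 5.07 ± 0.204 in MRX-2843 naive brain and 5.53 ± 0.908 in MRX-2843 tumor, a rise of 3.62 ± 0.25 on the log2 scale (adjusted p = 6.7e-09, edgeR). Adam17 and Adam10, proteases that shed L1 and other ectodomains, rose by 2.42 ± 0.10 and 1.49 ± 0.11, and St3gal4, a sialyltransferase, by 1.41. Bace1, the beta-secretase that cleaves CHL1, fell by 0.43 ± 0.09, a call that was lost with library totals. In MRX-2843 tumor against vehicle tumor 7 of the 8 were lower and 1, Bace1, higher (median -1.34), and the Bace1 call was again lost with library totals, and without MRX-2843 tumor replicate 1 or 2 or vehicle tumor replicate 1.

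Matrix molecules and receptors that bind L1 or NCAM were higher in vehicle tumor for 14 of 18 and lower for 2, Fgfr2 and Prnp, with a median of 1.22. With library totals, or without vehicle naive brain replicate 1 or vehicle tumor replicate 1, only 1 was lower. Fgfr1, the growth factor receptor with which NCAM and L1 interact, stood at 56.2 ± 0.342 CPM in vehicle naive brain, 463 ± 0.242 in vehicle tumor, 81.6 ± 1.59 in MRX-2843 naive brain and 62.7 ± 5.99 in MRX-2843 tumor, a rise of 3.04 ± 0.07. Itgb1, an integrin subunit, rose by 3.09, and the proteoglycans Acan and Vcan by 6.10 and 4.29. In MRX-2843 tumor against vehicle tumor 15 were lower and 1 higher (median -1.24). Among 19 other immunoglobulin adhesion molecules 13 fell and 4 rose in vehicle tumor (median -1.09), Thy1 falling by 3.18, Icam5 by 5.02 and Ntm by 2.53, all neuronal surface proteins, and Icam1, an endothelial and immune adhesion molecule, rising by 7.35. In MRX-2843 tumor against vehicle tumor 14 of the 19 were higher and 4 lower (median 1.08).

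**Figure D4:**
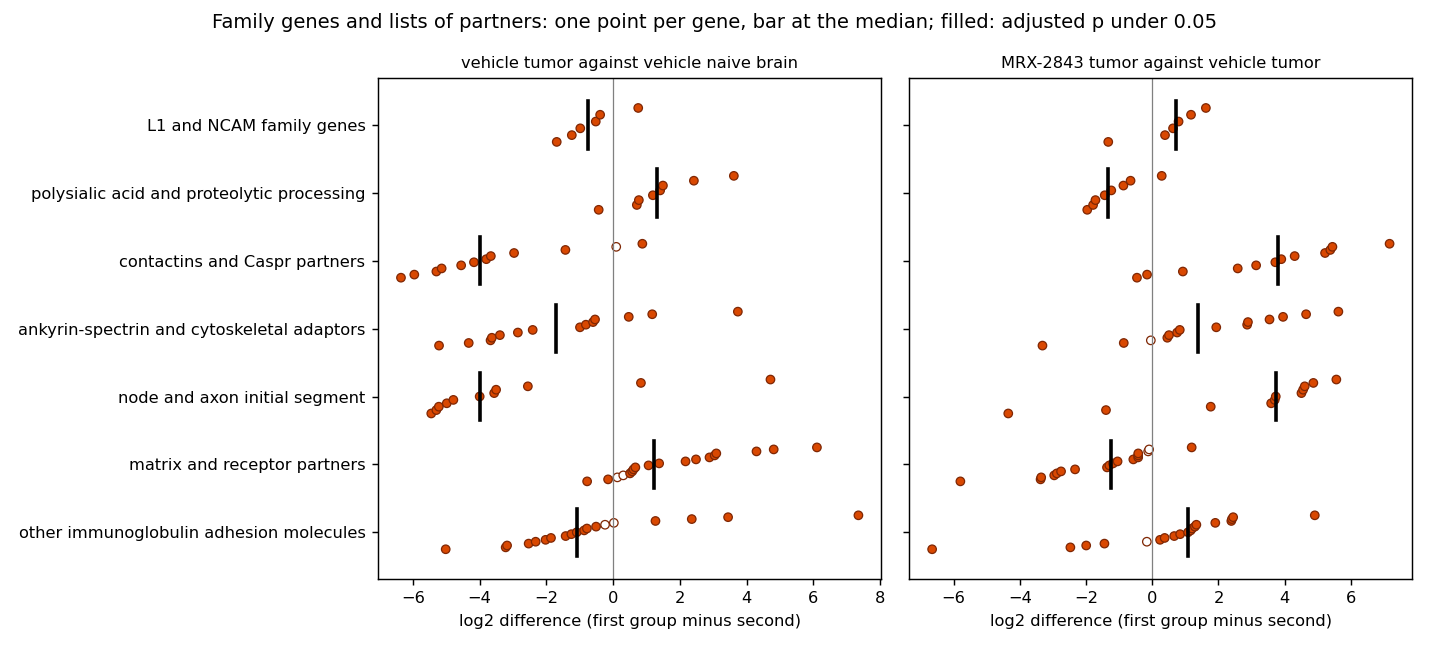
Log2 difference of the L1 and NCAM family genes and of every tested gene of the 6 partner lists, one point per gene, filled where the adjusted p was under 0.05, in vehicle tumor against vehicle naive brain and in MRX-2843 tumor against vehicle tumor, with a bar at each list's median. Contactins and Caspr proteins have medians of -3.99 and 3.81, and the processing genes 1.30 and -1.34.

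Between MRX-2843 tumor and MRX-2843 naive brain the medians of the 6 lists lay between -0.30 and 0.28, and between the naive brain groups between -0.37 and 0.13. In naive brain, St8sia2 was higher under MRX-2843 than under vehicle by 1.53 ± 0.25 (adjusted p = 0.00034, edgeR). It was the 1 gene called higher of the 8 that modify or cleave the adhesion molecules. Another 3 of the 8 were called lower, and their median was -0.14. Of all genes, 9.78% were called higher and 11.7% lower between the naive brains.

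Marker genes of other cell types moved with these results, and their part in them was not tested. To set beside the marker counts that follow, 29.3% of all genes were called higher and 30.8% lower in vehicle tumor against vehicle naive brain. The shares were 30.6% and 29.8% in MRX-2843 tumor against vehicle tumor, and 12.4% and 11.9% in MRX-2843 tumor against MRX-2843 naive brain. All 12 neuron markers were lower in vehicle tumor than in vehicle naive brain, with a summed level of 554 to 559 CPM against 7787 to 7895 CPM, and 5028 to 5123 CPM in MRX-2843 naive brain and 4775 to 4791 CPM in MRX-2843 tumor. Snap25 fell by 5.62 and Syt1 by 5.44. Rbfox3 fell far less, from 232 CPM in vehicle naive brain to 207 CPM in vehicle tumor, a large part of the sum there. It had 166 CPM in MRX-2843 naive brain and 182 CPM in MRX-2843 tumor. In MRX-2843 tumor against vehicle tumor 11 of the 12 were higher and 1, Rbfox3, lower. All 10 oligodendrocyte markers were lower in vehicle tumor too, 491 to 506 CPM against 7496 to 7561 CPM, with Mobp down by 6.10 and Mbp by 4.87 on the log2 scale. That list reached 7595 to 7663 CPM in MRX-2843 naive brain and 14234 to 14694 CPM in MRX-2843 tumor, all 10 genes being higher in the latter. It was thus highest in the libraries where Nfasc was highest. No neuron or oligodendrocyte marker was at 0 in any group.

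Markers that were higher in vehicle tumor included 9 of 11 radial glia and neuroblast genes (2167 to 2213 CPM against 541 to 542 CPM in vehicle naive brain, 535 to 559 in MRX-2843 naive brain and 679 to 687 in MRX-2843 tumor), with Vim up by 5.21 and Nes by 3.22. The other 2 of that list were lower, the neuroblast gene Dcx with a log2 difference of -3.39 (29.2 CPM in vehicle naive brain, 2.78 CPM in vehicle tumor) and Slc1a3, a glutamate transporter also in the astrocyte list, with -0.24. Of the 7 oligodendrocyte precursor markers 5 rose and 2 fell, with Sox10 up by 3.43 and Cspg4 by 3.26. Their sum was 1057 to 1081 CPM in vehicle tumor and 382 to 396 CPM in vehicle naive brain. It was 449 to 457 CPM in MRX-2843 naive brain and 654 to 698 CPM in MRX-2843 tumor. Sox10 alone gave 452 CPM of the sum in vehicle tumor. The 2 that fell were Gpr17 and Bcas1. Gpr17 had 30.76 CPM in vehicle naive brain, 12.04 CPM in vehicle tumor and 48.7 CPM in MRX-2843 tumor. Bcas1 had 142, 50.9 and 277 CPM in the same groups. Of the 10 astrocyte markers 4 rose, among them Gfap by 4.24, and 5 fell, among them Slc1a2 by 2.54, the sums being 3225 to 3230, 4224 to 4292, 2978 to 2997 and 3696 to 3772 CPM in the order vehicle naive brain, vehicle tumor, naive brain under MRX-2843 and tumor under MRX-2843. All 10 microglia markers rose, with C1qa up by 3.84, and summed to 2748 to 2781 CPM in vehicle tumor against 328 to 444 CPM elsewhere. All 9 endothelial markers rose, with Vwf up by 3.02 and Cldn5 by 2.28, and summed to 604 to 612 CPM in vehicle tumor against 164 to 178 CPM elsewhere.

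Schwann cells are known to make L1 and NCAM, and 7 of their 8 listed markers were higher in vehicle tumor. Their sum was 1459 to 1546 CPM there, 57.2 to 61.2 CPM in vehicle naive brain, 56.1 to 59.8 CPM in MRX-2843 naive brain and 74.8 to 78.3 CPM in MRX-2843 tumor. Pmp22 and Ngfr, up by 4.92 and 7.84, made up most of it. Of 11 ependymal markers 5 rose, among them Tm4sf1 by 3.54 and Rarres2 by 3.67, and 4 fell. The sums were 189 to 195 CPM in vehicle tumor and 24.4 to 48.0 CPM elsewhere, and Tm4sf1 alone had 156 CPM and Rarres2 26.9 CPM in vehicle tumor. The 4 that fell were the cilia genes Spag6l (3.10 to 0.173 CPM), Dynlrb2 (0.495 to 0.0807 CPM) and Rsph1 (2.74 to 1.46 CPM), and Ak7 (0.379 CPM to no count). Foxj1, the regulator of motile cilia, had 2.36 CPM in vehicle naive brain and 2.78 CPM in vehicle tumor (adjusted p = 0.453, edgeR). Mia was at 0 in vehicle naive brain and MRX-2843 tumor, Tmem212 in vehicle naive brain and Ak7 in vehicle tumor. Of 10 T and NK cell markers 9 were higher in vehicle tumor, the sum being 29.4 to 30.0 CPM against 3.43 to 3.67 CPM in vehicle naive brain, 16.9 to 18.1 CPM in MRX-2843 naive brain and 27.4 to 31.2 CPM in MRX-2843 tumor, and Gzmb and Nkg7 had no count in either naive brain group. Of the 10, 6 were at 0 in vehicle naive brain, 4 in MRX-2843 naive brain and 3 in MRX-2843 tumor. Cd4 alone, a gene that microglia and macrophages can also express, gave 16.5 CPM of the sum in MRX-2843 naive brain and 28.3 CPM in MRX-2843 tumor, against 2.37 CPM in vehicle tumor. The other 9 markers were lower in MRX-2843 tumor than in vehicle tumor.

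The genes whose pattern lay nearest to each of the 6 were found by the root mean square difference of centred log2 CPM over the 8 libraries, among 11868 genes. Nearest to L1cam were Bbs5 (0.0698) and Haghl (0.0729), to Chl1 Arcn1 (0.0825) and Bud31 (0.0833), and to Nfasc Csrp1 and Myo6 (both 0.0710). Nearest to Nrcam were Lmbrd2 (0.0406) and Nckap1 (0.0417), to Ncam1 Ppp2r5d (0.0333) and Pkd2l2 (0.0574), and to Ncam2 Arhgef25 (0.0698) and Rtn4 (0.0725). Among the 6 themselves, Nrcam and Ncam2 were nearest, at 0.110 log2 units, and L1cam and Chl1 farthest apart, at 1.22. The likeness is a description over 8 libraries in 4 groups.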

How the data were processed

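RNA labelled tumor or naive brain was measured by RNA-seq in 8 libraries. The authors deposited whole-number read counts, not normalized, for each gene. Per the submitters' processing notes, featureCounts, Subread, SAMtools and STAR 2.7.7a were used and mm10 and hg38 are listed as builds, with no role given for either. Strand setting and annotation are not given in the sources used here. Per the labels' protocols, a GenCatch kit gave the RNA and libraries were made outside the laboratory.

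The fit used edgeR 4.0.16 (R 4.3.3): filterByExpr at its minimum count of 10, then TMM scaling, then the quasi-likelihood model with 1 mean for each of 4 groups. It left 4 residual degrees of freedom and had a common biological variation coefficient of 21.0%. A gene is called changed at a Benjamini-Hochberg adjusted p under 0.05 over all 24356 genes, without a minimum fold. There were 5 comparisons: between tissues at each treatment, between treatments in each tissue, and their interaction. CPM is over TMM-scaled totals, and a level per kilobase divides it by the exon bases of the gene in GENCODE M21 on GRCm38, which matched 52081 gene identifiers without their version and may not be the release behind the counts. Totals of over 51150569 counts leave counting error small beside library spread, and a count of 0 allows up to 3 counts. That floor covers counting error only. The likeness used log2(CPM + 0.01) of genes with a mean log2 CPM of at least 2.

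The 6 genes, the 6 partner lists and the 10 cell type lists were chosen with earlier results of these data known. Named from each partner list were up to 4 genes with the smallest adjusted p in vehicle tumor against vehicle naive brain, from each cell type list up to 2, with Snap25, Mbp and Gfap, and for each of the 6 genes the 2 most alike. Cntn2, Ezr, Msn, Rdx, Gldn, Bace1, Fgfr2, Prnp, Rbfox3, Slc17a7, Gad1, Gad2, Gpr17, Bcas1, Dcx, Slc1a3, Spag6l, Dynlrb2, Rsph1, Ak7, Foxj1, Cd4, Xist and Ddx3y were named after their values were seen. Some genes that these rules name are not reported here. Alternatives were other scalings and filters, DESeq2 1.42.0, and blocks on replicate or on column number 915. Others were a minimum fold, fits of the compared groups alone and leaving out each library. Those added after seeing the data left out both tumor libraries of a treatment, mitochondrial genes, or genes on the sex chromosomes. The fit was tested on simulated data in which few genes changed, in vehicle tumor alone. Of the real genes, 60.1% were called in vehicle tumor against vehicle naive brain. The simulation therefore does not test the scaling under so broad a difference. Python 3.11.15, pandas 2.3.3, NumPy 2.4.6 and matplotlib 3.10.9 made tables and figures.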

Additional observations from a re-analysis of the deposited data

Results flagged for a closer look

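The tumor effect differed between vehicle and MRX-2843 mice, by edgeR's interaction term with 2 libraries a group, for 5 of the 6 genes, where 51.6% of all genes tested passed. The log2 difference between the tumor effects was 1.51 for L1cam (adjusted p = 4.6e-09), 1.47 for Ncam2 (3.1e-06), 1.19 for Nrcam (1.5e-08), 1.11 for Nfasc (1.7e-08) and -0.96 for Chl1 (1.1e-06). The libraries labelled MRX-2843 tumor correlated at 0.958 to 0.960 with vehicle naive brain and at 0.444 to 0.452 with vehicle tumor, and the tumor effect in MRX-2843 mice takes their label as given. Treatment cannot be told apart here from the sex-linked genes or the column number. Groups of 2 libraries give no test of a single outlying library.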

How the results depend on the processing

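Of the values of the 6 genes under the alternatives other than the minimum fold, which is given below as counts, 537 kept their direction and side of the threshold, 9 newly passed it, 3 no longer passed and 4 changed sign. The 4 that changed sign were of 2 genes. Ncam1 in the interaction was -0.21 with library totals and ranged from -0.0138 (without MRX-2843 naive brain replicate 2) to 0.0211 with 1 library left out, -0.00554 without MRX-2843 tumor replicate 2. Nfasc between the naive brains ranged from -0.0227 (without MRX-2843 naive brain replicate 1) to 0.137. Library totals moved the median of all genes by 0.24 in vehicle tumor against vehicle naive brain and changed the split of calls over all genes from 7125 higher and 7501 lower to 8684 and 6192. For MRX-2843 tumor against vehicle tumor the split became 6412 and 8647, and for the interaction 5534 and 7402. With library totals, 2 of the 6 genes were then negative in the interaction. The causes of these changes were not tested beyond the scaling itself.

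In MRX-2843 tumor against MRX-2843 naive brain, the lower genes among the 6 numbered 3 without the filter on low counts, where Chl1 reached an adjusted p of 0.0317 and L1cam 0.0480, and 2 without genes on chromosomes X and Y, where Chl1 reached 0.0457 and L1cam was not in the fit. Leaving out each library gave 1 to 2 higher and 1 to 3 lower. The other counts of the 6 genes did not change with any single library left out. With a minimum absolute log2 difference of 1, 0 of the 6 were higher and 2 lower in vehicle tumor against vehicle naive brain, 0 and 0 in MRX-2843 tumor against MRX-2843 naive brain, 2 higher in MRX-2843 tumor against vehicle tumor, 0 and 0 between the naive brains, and 0 negative in the interaction. Over all genes that minimum left 4643 higher in vehicle tumor, 772 higher and 591 lower in MRX-2843 tumor against MRX-2843 naive brain, 4464 lower in MRX-2843 tumor against vehicle tumor, and 687 higher and 702 lower between the naive brains. A block on the column number left 1510 genes higher between the naive brains, against 2383.

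Differences between replicates 1 and 2 were little correlated between groups (-0.105 to 0.0239). If the 2 libraries of a group are technical duplicates, this cannot show whether tumor and naive brain came from the same mice. With a replicate block the 6 genes kept 1 higher and 5 lower, 2 and 1, 5 and 1, 1 and 3, and 4 and 1 in the 5 comparisons, and all genes gave 6928 and 7192 in vehicle tumor against vehicle naive brain, 2946 and 2813, 7149 and 7077, 2311 and 2756, and 6129 and 5984. For the partner lists 1082 counts stayed within 1.5 times and 94 moved. The log2 difference of Nkg7 in MRX-2843 tumor against vehicle tumor, lost its call in DESeq2. With 2 libraries a group, the SE of each gene limits what can be resolved, and the interaction was not run on the compared groups alone.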
